A study of Rattus norvegicus with 26 samples.

Results

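The spread of gene expression among 7 left ventricles of the stroke-prone spontaneously hypertensive rat (SHRSP) at week 14 was described, using the 7 arrays that carry this strain and this stage out of 26 arrays in all. SHRSP is an inbred rat strain with severe inherited hypertension and left ventricular hypertrophy. The animals were untreated males on a normal-salt diet, killed under ketamine and xylazine anaesthesia, and the left ventricle without the septum was used for RNA. Each array holds 1 animal with no pooling, so the hearts, called by their replicate numbers below, share strain, sex, age and diet. The only other group used was the left ventricle of 8 male rats of the normotensive inbred strain F344 (Fischer) at week 14, for a comparison of spread and not of means. The arrays were Illumina RatRef-12 BeadChips with 22523 probes, and all values are log2 signals after quantile normalization by the authors. Of 13337 named genes, 4184 had a mean above 8 in the 7 hearts and form the set described here, with 1 probe per gene. Ofd1 (mean 8.00001) and Zfp563 (mean 8.00041) lay just above that limit, and Fntb (mean 7.99981) and Col18a1 (mean 7.99897) just below it.

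A pressure-loaded ventricle is known for raised secretion of the natriuretic peptides atrial natriuretic peptide and brain natriuretic peptide, encoded by Nppa and Nppb, which respond to wall stretch. Osteopontin, encoded by Spp1, is a secreted matrix protein made by macrophages, fibroblasts and stressed cardiomyocytes, and is linked to inflammation and fibrosis of the heart. Hypertrophy also brings changes in sarcomere genes, calcium cycling and extracellular matrix. In a homogenate of the ventricle, fewer cells of a type and less RNA per cell cannot be told apart.

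The 7 arrays resembled each other closely, with Pearson's r from 0.988 to 0.995 over all probes in the 21 pairs of hearts. Heart 1 had the lowest median r with the other hearts (0.989) and held the lowest value in 24.5% of the 4184 genes. The values ran from 6.64 to 15.53 with a median of 7.16, so a level near 7 lies at the lower end of the array. Most markers of cardiac muscle were at high levels, Myh6 at 15.01 ± 0.05, Tnnt2 at 15.25 ± 0.12 and Myl3 at 14.76 ± 0.13 (mean ± SD, n = 7). For Myl3 the SD was 0.08 without heart 1. Tnni3 was also high (mean 14.56), but the cardiac muscle markers Myl2 (11.41) and Actc1 (8.96) had lower means. T cell markers Cd3e (7.33) and Cd3d (6.98), the B cell marker Cd79b (7.16), the red cell precursor marker Alas2 (7.07) and the fat cell marker Adipoq (7.21) had means at the lower end of the array. The endothelial marker Cdh5 was also there (7.31), although the tissue holds endothelium, while the fibroblast marker Dcn was at 13.09. Macrophage markers Cd68 and Csf1r were not named among the probes used here.

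The spread was small for most genes and concentrated in a few. The median SD over the 5314 probes with a mean above 8 was 0.15, with quartiles of 0.113 and 0.204. An SD above 0.5 was found for 69 of the 4184 genes (1.65%). The most variable gene was Vcam1 (SD 1.30), the vascular adhesion molecule that binds leukocytes, followed by Icam1 (SD 1.29), its counterpart for other leukocyte integrins, S100a8 (SD 1.20), a calcium-binding protein of neutrophils and monocytes, Cxcl1 (SD 1.17), a neutrophil-attracting chemokine, Mt1 (SD 1.16), the metal-binding metallothionein, and Spp1 (SD 1.06).

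Vcam1 was at 7.66, 9.49, 7.66, 7.71, 7.93, 11.07 and 9.15 in hearts 1 to 7. Icam1 was at 7.42, 8.77, 7.49, 7.81, 7.45, 10.86 and 9.24 in the same hearts, and Cxcl1 at 7.76, 9.38, 7.79, 7.58, 7.54, 10.59 and 8.98. All 3 genes were highest in heart 6, intermediate in hearts 2 and 7 and near the lower end of the array in the other hearts, so no fold is given against those low levels. Irf1, an interferon- and cytokine-induced transcription factor, ran from 9.24 in heart 1 to 12.32 in heart 6 (SD 1.02), and Nuak2, a stress-responsive kinase, from 7.79 in heart 1 to 10.37 in heart 6 (SD 0.94). Csf1, the growth factor of macrophages, ran from 7.72 in heart 3 to 10.19 in heart 6 (SD 0.88), and Cx3cl1, an endothelial chemokine for monocytes, from 9.55 in heart 3 to 12.17 in heart 6 (SD 0.91). These 7 genes had their highest value in the same heart. Nfkbia, the inhibitor of NF-kappaB that is itself an NF-kappaB target, differed in form, with heart 3 alone low at 10.76 and the other hearts between 12.01 and 12.86. Without heart 6 the SD fell to 0.83 for Vcam1, 0.79 for Icam1, 0.64 for Irf1, 0.45 for Csf1 and 0.52 for Cx3cl1, and without heart 3 that of Nfkbia to 0.38.

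**Figure D1:**
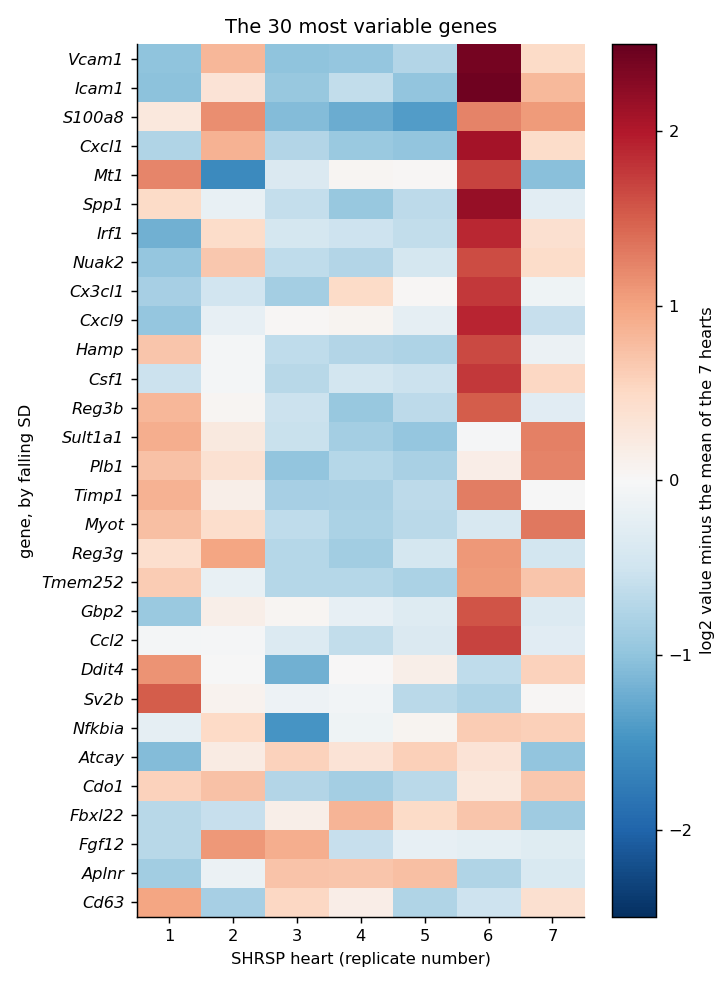
Heat map of the 30 genes with the highest SD among named genes with a mean above 8, ordered by falling SD from top to bottom, with the 7 SHRSP week 14 hearts as columns and colour for the log2 value minus the mean of the 7 hearts. Most of the genes at the top are highest in heart 6, and Sult1a1, Plb1 and Myot are highest in heart 7.

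The promoters of these genes were read for short motifs, as a description. The windows came from RefSeq (assembly GRCr8, 250 bases before to 50 after the annotated start, from the reference strain and not from SHRSP), and 53 of the 69 variable genes had one. The NF-kappaB consensus, searched on both strands after the values had been seen, was present in 8 of these 53 windows (15.1%) and in 4.16% of all 27457 windows. The 8 genes were Cd83, Cxcl1, Irf1, Lcn2, Nfkbia, Reg3g, Tinagl1 and Vcam1, and the window of Icam1 held no match. It was 1 of 7 motifs searched, and the others lay on both sides of their share in all windows. The short glucocorticoid receptor motif AGAACA was in 7.55% of the 53 windows against 20.1% of all, the GATA site (AGATAA) in 7.55% against 11.3%, the E-box (CACGTG) in 11.3% against 6.65%, the AP-1 site (TGANTCA) in 9.43% against 7.33% and the loose core of the serum response element in 84.9% against 71.9%, and no difference was tested. The stretches of Vcam1, Cxcl1, Irf1, Lcn2 and Nfkbia are shown 5′ to 3′ along the gene with the match in capitals. All were highest in heart 6, Nfkbia only narrowly (12.86, against 12.83 in heart 7).
Vcam1, chr2:206742847-206742896, minus strand: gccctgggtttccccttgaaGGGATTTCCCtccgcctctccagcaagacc
Cxcl1, chr14:17479376-17479425, minus strand: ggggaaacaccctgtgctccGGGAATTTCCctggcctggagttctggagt
Irf1, chr10:38417850-38417899, plus strand: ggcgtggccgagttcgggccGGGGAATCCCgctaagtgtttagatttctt
Lcn2, chr3:36081993-36082030, minus strand: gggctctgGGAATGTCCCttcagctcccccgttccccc
Nfkbia, chr6:78597074-78597123, minus strand: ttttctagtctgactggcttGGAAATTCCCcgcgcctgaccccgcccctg
The matches begin at -93 in Vcam1, -84 in Cxcl1, -65 in Irf1, -242 in Lcn2 and -31 in Nfkbia relative to the annotated start. A match of letters does not show that a factor binds there.

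Of the 69 variable genes, 30 had their highest value in heart 6 (43.5%), against 11.8% of all 4184 genes, and 12 had it in heart 1 (17.4%), against 16.9% of all. Their lowest values were most often in heart 1 (19 genes), heart 3 (14 genes) and heart 4 (14 genes). A principal component analysis of the 69 genes placed 50.2% of the variance on a first component and 29.6% on a second. On the first component heart 6 scored 7.5, hearts 1, 2 and 7 between 1.16 and 2.19, and hearts 3, 4 and 5 between -4.08 and -4.01. The second component set heart 1 (5.77) and heart 7 (2.86) against heart 6 (-4.26). The hearts therefore did not follow 1 order, and at least 2 sets of variable genes ranked them differently.

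The second set had its high values in hearts 1 and 7. Sult1a1, a sulfotransferase of phenols, was at 10.60, 9.94, 9.12, 8.83, 8.71, 9.66 and 10.93 in hearts 1 to 7 (SD 0.86). Myot, the Z-disc protein myotilin, was at 10.91, 10.60, 9.51, 9.36, 9.48, 9.75 and 11.47 (SD 0.83). Plb1, a phospholipase, ran from 8.98 to 11.21 with the highest value in heart 7 as well. Pdk4, which restrains glucose oxidation, ran from 10.03 in heart 2 to 11.66 in heart 7, and the glucocorticoid-induced genes Fkbp5, a cochaperone of the glucocorticoid receptor, and Klf9, a transcription factor, ran from 10.93 to 12.37 and from 9.52 to 11.19. Fkbp5 was highest in heart 7 and Klf9 in heart 1, without which the SD of Klf9 fell from 0.53 to 0.19. In the list of glucocorticoid and stress response genes 7 of 10 measured above 8 (70%) had an SD above 0.5, against 1.65% of all 4184 genes. The list was chosen with earlier results of these data known. Its mean deviation from the mean of the hearts was highest in heart 1 (0.59) and lowest in heart 3 (-0.58).

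Lists of other gene groups differed in how much they varied. The lists were chosen with earlier results of these data known, so a high share of variable genes in them is no independent result. Over all 4184 genes the share with an SD above 0.5 was 1.65%. Of 11 acute phase and injury genes above 8, 9 had an SD above 0.5 and the median SD was 0.815, against 0.149 over all named genes above 8. Their mean deviation was 1.14 in heart 6 and 0.45 in heart 1 and lay between -0.61 and -0.53 in hearts 3, 4 and 5. Of 11 interferon response genes 5 had an SD above 0.5 (median 0.488), with a mean deviation of -0.71 in heart 1 and 0.71 in heart 6. The interferon genes did not all share that order, since Cxcl9, Gbp2 and Ifi47 were highest in heart 6 while Mx2, an antiviral GTPase, was highest in heart 3 (9.44) and lowest in heart 1 (8.01). Of 16 immediate early genes 5 passed an SD of 0.5, and none of 25 genes of oxidative phosphorylation did, 20 of which (80%) were at or below the median SD of 0.15, against 50.7% of all 4184 genes.

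**Figure D2:**
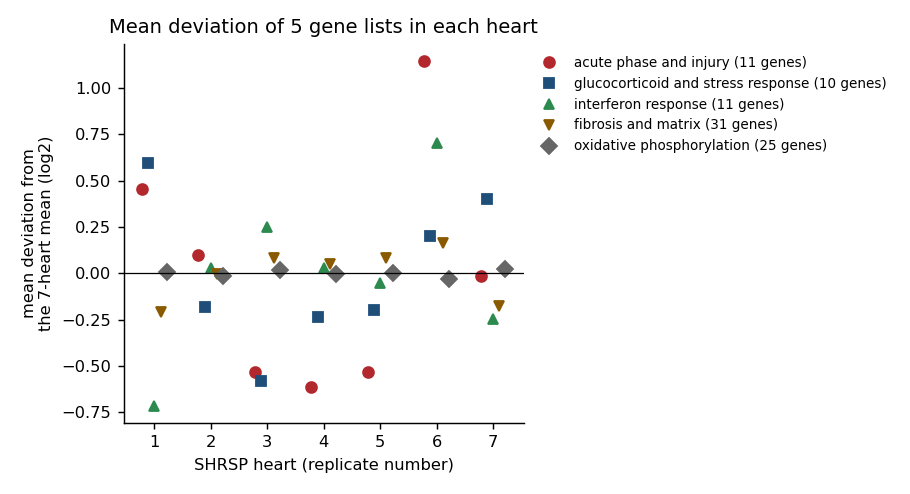
Mean deviation of the genes of 5 lists from the 7-heart mean (log2, vertical axis) in each SHRSP week 14 heart (horizontal axis), over the genes of each list with a mean above 8. Acute phase genes are highest in heart 6 (1.14), glucocorticoid and stress genes in heart 1 (0.59), interferon genes lowest in heart 1 (-0.71), and oxidative phosphorylation genes stay near 0 in every heart.

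Markers of other cells moved with some of these genes, and their part in the spread was not tested. S100a8 was at 8.85, 9.75, 7.5, 7.36, 7.20, 9.83 and 9.65 in hearts 1 to 7, with hearts 3, 4 and 5 apart from the rest, but its usual partner S100a9 stayed between 6.86 and 7.09. S100a8 and Lcn2 were the only granulocyte and mast cell genes above 8 of 17 measured, both with an SD above 0.5, and their mean level ran from 8.24 in heart 5 to 10.38 in heart 6. Of 15 macrophage genes above 8, 3 had an SD above 0.5 (20%, against 1.65% of all 4184 genes). The mean level of the macrophage list ran from 9.07 in heart 3 to 9.62 in heart 6. The haemoglobin gene Hbb ran from 13.87 in heart 6 to 14.76 in heart 5, and Hba-a1 from 13.24 in heart 6 to 14.64 in heart 4, so both globins were lowest in the heart with the highest Spp1. Globin probes can cross-hybridize between near-identical copies. Of 15 endothelial genes above 8, 3 had an SD above 0.5 (20%). The T and NK lymphocyte list (2 genes above 8) and the MHC class II list (5 genes above 8) had none.

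Spp1, Nppa and Nppb did not order the hearts alike. Spp1 (Entrez gene 25353) was at 9.91, 9.25, 8.85, 8.50, 8.78, 11.61 and 9.18 in hearts 1 to 7, an 8.64-fold range (mean 9.44, SD 1.06, or 0.49 without heart 6). Nppa (Entrez gene 24602) was at 14.76, 14.41, 13.94, 14.07, 14.27, 14.50 and 13.48 (SD 0.42), and Nppb (Entrez gene 25105) at 14.13, 14.96, 14.87, 14.85, 14.81, 15.30 and 14.24 (SD 0.41). Heart 6 was highest for Spp1 and Nppb and second for Nppa, heart 1 was highest for Nppa and lowest for Nppb, and heart 7 was lowest for Nppa. Unlike Spp1, Nppa and Nppb reached levels near the top of the array (15.53). Whether saturation narrowed their spread was not tested.

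**Figure D3:**
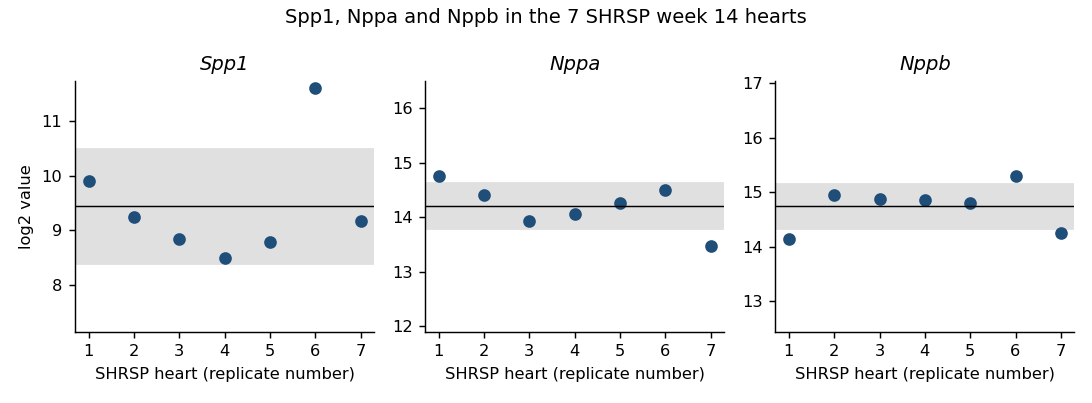
Log2 values of Spp1, Nppa and Nppb (vertical axes of equal length, different ranges) in the 7 SHRSP week 14 hearts (horizontal axis), with the mean as a line and ± 1 SD as a grey band. Heart 6 stands at 11.61 for Spp1, and hearts 1 and 7 are low for Nppb at 14.13 and 14.24.

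No pair of the 3 genes passed an exact permutation test of its correlation over the 7 hearts. For Spp1 and Nppa, Pearson's r was 0.483 (exact two-sided permutation p = 0.280, 0.711 after Benjamini-Hochberg adjustment over the 3 pairs) and Spearman's rho was 0.643 (exact permutation p = 0.139, adjusted 0.417). For Spp1 and Nppb, r was 0.306 (exact permutation p = 0.513, adjusted 0.711) and rho 0.214 (exact permutation p = 0.662, adjusted 0.840). For Nppa and Nppb, r was 0.179 (exact permutation p = 0.711, adjusted 0.711) and rho 0.107 (exact permutation p = 0.840, adjusted 0.840). Without hearts 1 and 6 together, the farthest from the median of Spp1, r became -0.137 for Nppa and -0.353 for Nppb. With 1 heart left out, r stayed between 0.445 and 0.621 for Spp1 and Nppa but reached -0.721 without heart 6 for Spp1 and Nppb. For Nppa and Nppb r rose to 0.684 without hearts 1 and 7, to 0.907 without heart 1 alone, and fell to -0.408 without heart 7 alone.

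Across all 22522 other probes, 2 were associated with Spp1 (limma, Benjamini-Hochberg adjusted p under 0.05, 0.00888% of those tested), both positively, and 1172 (5.2%) had an unadjusted p under 0.05. They were Hamp, which encodes the iron regulator hepcidin, and Ccl2, the chemokine that draws monocytes. Hamp was at 9.19, 8.44, 7.85, 7.75, 7.72, 10.14 and 8.35 in hearts 1 to 7 and rose by 0.824 ± 0.0643 per log2 unit of Spp1 (slope ± SE; limma adjusted p = 0.0212; Pearson's r 0.978 over the 7 hearts, 0.924 without hearts 1 and 6). Ccl2 was at 8.03, 8.04, 7.73, 7.47, 7.70, 9.76 and 7.79 and rose by 0.706 ± 0.0628 (limma adjusted p = 0.0294; r 0.971, 0.923 without hearts 1 and 6). Spearman's rho with Spp1 was 0.964 for both, but the high values of Ccl2 came from heart 6 only. The number of associated probes depended on which hearts were used. It was 47 without heart 1, 84 without heart 6, 6 without heart 7, and 0 without heart 2, 3, 4 or 5. Hamp stayed below the threshold without heart 1 (limma adjusted p = 0.00218), 6 (0.0153) or 7 (0.0433), and Ccl2 without heart 1 (0.000458) or 7 (0.0433) but not without heart 6 (0.130).

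The genes next most like Spp1, chosen by r and so given without a test of their own, included several secreted proteins. Reg3b, a lectin released by injured tissue, was at 9.70, 8.92, 8.33, 7.92, 8.21, 10.38 and 8.58 in hearts 1 to 7 (r 0.960, rho 1), the same order of hearts as Spp1. F3, tissue factor, which starts coagulation, also kept that order exactly (r 0.915, rho 1), from 9.0 in heart 4 to 10.62 in heart 6. Lcn2, the iron-scavenging lipocalin (r 0.939), Timp1, the inhibitor of matrix metalloproteinases (r 0.915), Postn, the matrix protein periostin (r 0.930), Slpi, a protease inhibitor (r 0.926), Cd14, the endotoxin coreceptor (r 0.924), and Gnai3, a G protein subunit (r 0.921), completed the 10. Their r without heart 6 differed widely. It was 0.411 for Gnai3 and 0.587 for Postn, against 0.991 for Reg3b and 0.968 for Timp1. In the opposite direction stood Car4, a membrane carbonic anhydrase of capillaries (r -0.942), and Cry1, a repressor of the circadian clock (r -0.928). Cldn5, the endothelial tight junction protein (r -0.874), and Hba-a1 (r -0.850) were opposed as well. Heart 6 alone was set apart for Car4, at 8.75 against 9.32 in the nearest heart. Without heart 6 the SD fell from 0.37 to 0.27 for Cry1, from 0.39 to 0.27 for Cldn5 and from 0.46 to 0.33 for Hba-a1. Acute phase genes as a list had a median r of 0.785 with Spp1, 0.422 with Nppa and 0.123 with Nppb. That list was chosen with earlier results of these data known, and 8 of its 11 genes were highest in heart 6, as Spp1 was. Its likeness to Spp1 is therefore no independent result.

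No probe was associated with Nppa (limma, adjusted p under 0.05 in 0 of 22522; 896, or 3.98%, at an unadjusted p under 0.05), and exact permutation of Spearman's rho gave 0 as well, with 1043 unadjusted. The most alike genes were Usp2, a ubiquitin protease (r 0.774), Tgfb2, a transforming growth factor (r 0.712), and C1qa, a complement component (r 0.688). With 1 heart left out, the slope of Usp2 on Nppa ran from 0.453 (without heart 1) to 1.09 (without heart 7). For Tgfb2 the slope ran from 0.472 (without heart 6) to 0.811 (without heart 1). The most opposed were Bdnf, a neurotrophin (r -0.778), and Nfil3, a circadian repressor (r -0.747). Bdnf ran from 8.39 in heart 1 to 9.30 in heart 7 and Nfil3 from 8.51 in heart 1 to 9.78 in heart 3. The sarcomeric gene Acta1 also followed Nppa (r 0.768) but over a range from 14.44 to 14.64 only.

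No probe passed for Nppb either (limma, 0 of 22522, 1724, or 7.65%, at an unadjusted p under 0.05; 0 by exact permutation of rho, with 1140 unadjusted). The nearest was Actb, cytoplasmic beta-actin and a common reference gene, at 12.70, 13.36, 13.41, 13.38, 13.38, 13.62 and 12.82 in hearts 1 to 7 (r 0.981, limma adjusted p = 0.0530). Gimap4, a lymphocyte GTPase, was next (r 0.968, limma adjusted p = 0.0692), and the interferon-induced GTPase Ifi47 kept the exact order of Nppb (r 0.948, rho 1), from 7.93 in heart 1 to 9.48 in heart 6. Like Nppb, these genes were low in hearts 1 and 7. Opposed to Nppb were Rgs2, a brake on G protein signalling (r -0.954), Id1, an inhibitor of transcription factor binding (r -0.947), Gpihbp1, which carries lipoprotein lipase to the capillary surface (r -0.909), and Pdk4 (r -0.885). All 4 were high in hearts 1 and 7. Without hearts 1 and 7, the farthest from the median of Nppb, r was -0.920 for Rgs2, -0.828 for Id1, 0.927 for Actb and 0.950 for Ifi47, but -0.269 for Gpihbp1 and -0.0242 for Pdk4, which rested on those hearts.

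The fibrosis and matrix list, like Nppb, was lowest in hearts 1 and 7 (mean deviation -0.21 and -0.17). Of 31 above 8, 26 had a positive r with Nppb (median 0.573), 13 with Spp1 (median -0.0976) and 15 with Nppa (median -0.0058). The share of all 4184 genes with a positive r is not given here, so these counts are not read as particular to matrix genes. With Nppb, r was also positive for 11 of 11 interferon response genes and 9 of 10 heat shock genes. It was positive for 7 of 24 sarcomere and Z-disc genes and 11 of 25 oxidative phosphorylation genes. Col3a1, a chain of fibrillar collagen, was at 8.55, 9.22, 9.36, 9.36, 9.21, 9.11 and 8.59 in hearts 1 to 7 (r 0.811 with Nppb). Col5a1 had an r of 0.882, the growth factor Tgfb1 of 0.861, Lum, the collagen-binding lumican, of 0.841 and Ccn2, connective tissue growth factor, of 0.813. Without hearts 1 and 7 r was -0.749 for Col3a1, -0.353 for Lum and 0.123 for Col5a1, so for these matrix genes the likeness rested on 2 hearts, while it was 0.931 for Tgfb1 and 0.605 for Ccn2. Mmp14, a membrane-bound collagen protease, ran the other way (r -0.883). Timp1 was alike to Spp1 (r 0.915) and not to Nppb (r -0.00467), while Postn had an r of 0.566 with Nppb beside that of 0.930 with Spp1, which was 0.587 without heart 6. These r share the same 7 hearts and the normalization, and none passed the test over all probes.

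Fewer than 1 in 3 hypertrophy genes were uniform among the hearts, a smaller share than over all genes. Of 127 genes in 5 lists (natriuretic and stress peptides, sarcomere and Z-disc, hypertrophic signalling, calcium cycling and channels, fibrosis and matrix), 105 were measured and 75 had a mean above 8. Of these 75, 3 (4%) had an SD above 0.5, namely Spp1, Timp1 (SD 0.83) and Fhl1 (SD 0.61), against 1.65% of all named genes above 8. An SD at or below the median of all probes above 8 was found for 23 (30.7%), against 50.7% of all named genes above 8. The median SD of the 75 genes was 0.219, against 0.149 over all named genes above 8. These shares and medians are descriptions and were not tested.

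Sarcomere and Z-disc genes made up 12 of the 23 uniform genes, out of 24 measured above 8, a share of 50% that is close to the 50.7% of all named genes. Acta1, skeletal alpha-actin and a classic marker of load, ran from 14.44 to 14.64 (SD 0.07, or 0.04 without heart 1). The heavy chains Myh6 and Myh7, alpha and beta myosin, ran from 14.94 to 15.09 and from 15.08 to 15.23 (SD 0.05 each). Ankrd1, a stretch-responsive ankyrin repeat protein, ran from 15.19 to 15.38 (SD 0.07), and Actc1, cardiac actin, from 8.77 to 9.18 (SD 0.13). Except for Actc1 these levels lie near the top of the range of the array, and whether saturation narrowed their spread was not tested. Actc1 had the lowest mean of the cardiac muscle markers (8.96), and how well its probe measures the gene was not tested. Atp2a2, the calcium pump of the sarcoplasmic reticulum, sat at the highest value of the array (15.53) in 6 of 7 hearts, so its SD of 0.03 is no measure of its spread. At levels far from the top, uniform genes included Lox, the collagen crosslinking enzyme (9.18 to 9.44, SD 0.08), and Cacna1c, the L-type calcium channel (9.21 to 9.39, SD 0.08). Akt1, a growth kinase (9.21 to 9.60, SD 0.13, or 0.07 without heart 7), and Ppp3cb, a calcineurin subunit (8.74 to 9.03, SD 0.12), were uniform too. So were Col1a1 (7.92 to 8.29, SD 0.14) and Fbn1, fibrillin (8.21 to 8.66, SD 0.15). Col1a1 lay close to the limit of 8 (mean 8.16), and Col1a2, at a mean of 12.85, was not uniform (SD 0.30).

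Other hypertrophy genes had larger SDs. Fhl1, a stretch sensor at the sarcomere, was at 11.91, 11.52, 10.65, 10.56, 10.59, 11.88 and 11.51 in hearts 1 to 7, low in hearts 3, 4 and 5 like the acute phase genes (r 0.771 with Spp1). Sparc, a matrix glycoprotein, was low in heart 1 (11.87) and between 12.69 and 13.43 elsewhere (SD 0.49, or 0.27 without heart 1). Mfap4, of elastic fibres, ran from 7.96 to 9.32 (SD 0.49), Corin, the protease that activates atrial natriuretic peptide, from 8.46 in heart 4 to 9.70 in heart 1 (SD 0.44), Flnc, filamin C, from 10.42 to 11.66 (SD 0.41), Gata4, a cardiac transcription factor, from 8.58 to 9.51 (SD 0.36) and Rcan1, a calcineurin target, from 12.33 to 13.35 (SD 0.35). Corin and Nppa were only loosely alike (r 0.295). The potassium channel subunit Kcne1 ran from 8.45 in heart 6 to 9.02 in heart 1 (SD 0.22).

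**Figure D4:**
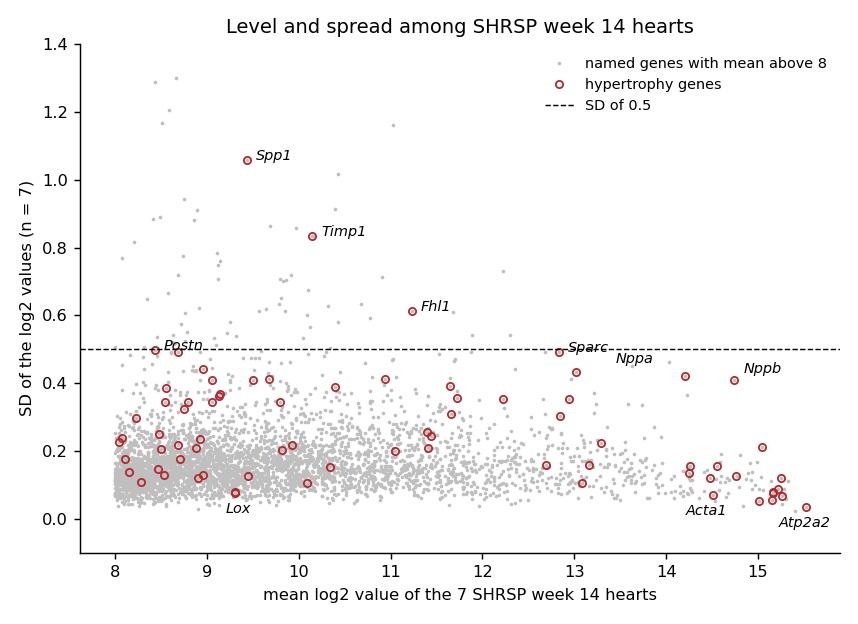
Mean log2 value (horizontal axis) and SD over the 7 SHRSP week 14 hearts (vertical axis) of named genes with a mean above 8 (grey) and of the 75 hypertrophy genes (red circles), with the SD of 0.5 as a dashed line. Spp1, Timp1 and Fhl1 lie above the line, and the genes near the top of the array, with Atp2a2 at the end, have small SDs.

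Clock genes also differed between the hearts. Per2, a clock repressor, ran from 8.77 in heart 5 to 10.36 in heart 6 (SD 0.61), Nfil3 had an SD of 0.54, Per1 ran from 9.09 in heart 3 to 10.40 in heart 1 (SD 0.41) and Cry1 from 8.26 in heart 6 to 9.17 in heart 4 (SD 0.37). Hearts 1 and 6 had the highest Per2 and the lowest Cry1 and Nfil3. The clock list did not share 1 order, with a median r of -0.188 between pairs of its 6 genes above 8. Its mean deviation stayed between -0.09 and 0.11 in every heart. The time of day at which each heart was taken is not given in the sources used here, and its part in the spread was not tested. Per2 is among the 3.54% of RefSeq windows that hold a D-box (TTATGNAA, both strands), the element bound by Nfil3, starting at -192 and shown with the match in capitals.
Per2, chr9:99497158-99497205, minus strand: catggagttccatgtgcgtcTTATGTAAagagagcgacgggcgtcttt
Of the variable genes with a window, 4 held a D-box (7.55%).

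The spread was then set beside that of the 8 F344 hearts of the same age. With a test of absolute deviations from each group's mean (limma on all 22523 probes), 11 probes differed in spread (0.0488% of those tested), 3 with more spread in SHRSP (0.0133%) and 8 with more in F344 (0.0355%), and 1751 (7.77%) had an unadjusted p under 0.05. The 3 were Gpc4, a glypican (SD 0.49 against 0.14; adjusted p = 0.0197), Ramp2, a receptor partner for adrenomedullin (SD 0.31 against 0.13; adjusted p = 0.0426), and Dusp3, a phosphatase at a low level (adjusted p = 0.0306). None of these 3 was called with deviations from the group median, with limma-trend, with a replicate block, by exact permutation, or without F344 replicate 2, 4 or 6. Among the 8, Rab30, a small GTPase, had an SD of 0.22 against 0.76 (adjusted p = 0.0029), and the others with a name were Procr, Gfpt2, Has1 and Trh. None of the 69 variable genes was among the 11. Spp1 had an SD of 1.06 in SHRSP and 0.23 in F344, where it lay between 7.31 and 7.99 at the lower end of the array, and the difference did not pass (limma adjusted p = 0.539).

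Of the 69 genes, 50 had a larger SD in SHRSP, but they were chosen for a large SD there. In F344, 119 of the same 4184 genes had an SD above 0.5, and 32 were shared, which is 46.4% of the 69 and 26.9% of the 119. Hamp (SD 0.89, or 0.57 without heart 6, against 1.31), Reg3b (0.88 against 1.5) and Timp1 (0.83 against 1.29) spread over more in F344, and Vcam1 (1.30 against 0.62) and Cd63 (0.70 against 0.18; adjusted p = 0.188) over more in SHRSP. None of these differences passed the test. Among the 75 hypertrophy genes, 49 (65.3%) had a smaller SD in SHRSP than in F344, as did 58.1% of all 4184. Acta1 had an SD of 0.07 in SHRSP, where it was near the top of the array, and 0.63 in F344, where it lay between 11.33 and 13.41 (limma adjusted p = 0.50), and for Myh7 the SDs were 0.05 and 0.28 (limma adjusted p = 0.309). Lox, with a mean of 9.31 in SHRSP and 9.22 in F344, had an SD of 0.08 against 0.64 (adjusted p = 0.649).

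**Figure D5:**
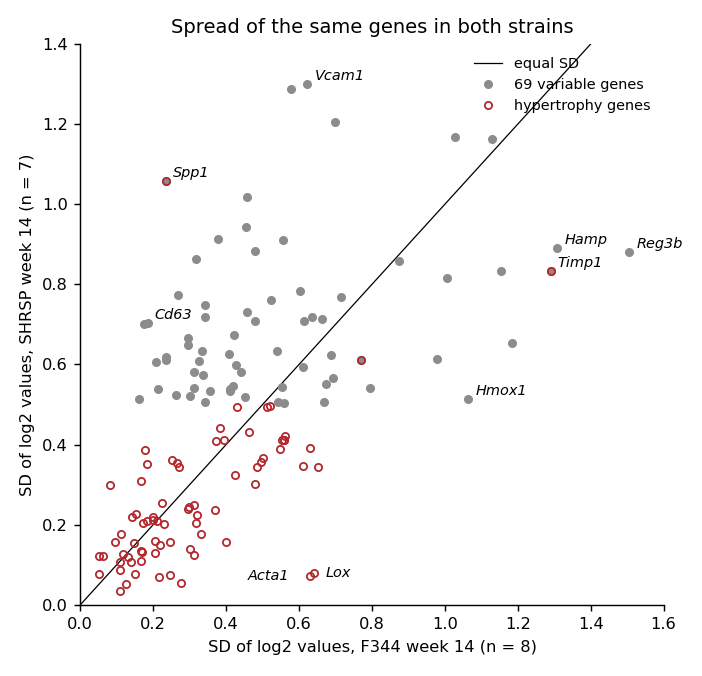
SD of the log2 values among the 8 F344 hearts (horizontal axis) and the 7 SHRSP hearts (vertical axis) at week 14 for the 69 variable genes (filled) and the 75 hypertrophy genes (open red), with a line of equal SD. Spp1 and Vcam1 lie above the line, and Hamp, Reg3b, Timp1, Hmox1, Acta1 and Lox below it.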

How the data were processed

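Total RNA of the left ventricle was amplified, biotin-labelled and hybridised to Illumina RatRef-12 arrays, 1 animal per array. The authors read the arrays with GenomeStudio, checked them with lumi, left out arrays that correlated poorly with their group, and applied a log2 transformation and quantile normalization; the deposited series matrix holds these log2 values. The spread described is thus that of arrays that passed this filter. Background correction is not given in the sources used here. The series also holds a table of signals before normalization, of which 52 columns were not matched to a sample and were not used. Because quantile normalization gives each array the same distribution, a shift common to most genes of a heart would not be seen. Arrays have no read depth, and their number (7) limits the precision.

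Of 22523 probes, 13793 had 1 gene name in the platform annotation, 0 had several and 8730 had none, and names were updated through Entrez IDs to RefSeq symbols. For each gene the probe with the highest mean over the 7 hearts was used. The SD over the 7 hearts ranked genes with a mean above 8. Slopes of each probe on Spp1, Nppa or Nppb, and absolute deviations from the group mean in SHRSP and F344 (multiplied by the root of n/(n-1)), were tested with limma 3.58.1 in R 4.3.3 over all probes with Benjamini-Hochberg adjustment, with 0.05 as the threshold. Correlations of the key genes had exact permutation p-values over all 5040 pairings. Likeness to a key gene was Pearson's r among genes with a mean above 8 and an SD of at least 0.3. The functions were checked on simulated data. Python 3.11.15, NumPy 2.4.6, pandas 2.3.3, SciPy 1.17.1 and Matplotlib 3.10.9 were used for the rest.

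The genes named are the 3 key genes, the 30 with the highest SD, the 10 most alike and 10 most opposed to each key gene, the hypertrophy lists, up to 4 members with the highest SD of each other list, genes next to the limit of 8, probes called in the comparison of spread and genes that the authors followed further. Members and lists were chosen with earlier results of these data known. Each replicate is 1 animal on 1 array, from 1 colony per strain. Spread between animals and technical spread between arrays therefore cannot be told apart, and the p-values rest on both together. SHRSP and F344 replicate numbers do not pair animals. Alternatives were another limit on the mean, the median absolute deviation, all probes of a gene, renormalization, median centring, limma-trend, array weights, ranks, a principal component as covariate, permutation tests, a replicate block and leaving out each array.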

Additional observations from a re-analysis of the deposited data

Results flagged for a closer look

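Of 111 genes named in the text, 13 had 1 heart set apart from the others. Its gap to the nearest other heart took an unusually large share of the range of the 7 hearts, by Dixon's 95% critical value. Chance passes that value in about 1 of 20 groups, but that rate does not apply here. Many of these genes were named for a large SD or for likeness to Spp1, itself highest in heart 6. The share over all genes is not given. In 8 of the 13 genes the highest heart was heart 6. Ccl2 was at 9.76 there and at most 8.04 elsewhere (gap of 0.75 of the range), Gnai3 at 11.57 against 10.83 (0.732), Cxcl9 at 10.79 against 8.97 (0.636), Postn at 9.47 against 8.60 (0.606) and Gbp2 at 10.31 against 8.89 (0.572). Cxcl10 (0.909), Selp (0.797) and Ccl7 (0.727) had it too. Car4 was lowest in heart 6, at 8.75 against 9.32 (0.604), as were Cd3e, near the lower end of the array (0.608), and Atp2a2, whose other hearts share the highest value of the array (1). Nfkbia was low in heart 3 (0.595) and Klf9 high in heart 1 (0.694).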

How the results depend on the processing

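The number of named genes with an SD above 0.5 (69) was 73 with a mean above 7.5, 42 with a mean above 9, 77 by the median absolute deviation (45 of the 69 among them) and 60 to 89 with 1 heart left out. The 2 probes associated with Spp1 became 38 with limma-trend, 0 with array weights, 1 with ranks, 4 among probes with a mean above 8, 46 with the leading principal component as a covariate, 0 by exact permutation of Spearman's rho (1250 unadjusted), and 0 to 84 with 1 heart left out. For Nppb they were 3 with limma-trend, 1 with ranks and 0 in the other settings, and for Nppa 0 in each setting tried. The correlations turned sign for Spp1 with Nppa (-0.137) and with Nppb (-0.353) without hearts 1 and 6. With 1 heart left out they ran from 0.445 to 0.621 for Spp1 and Nppa, from -0.721 (without heart 6) to 0.581 (without heart 1) for Spp1 and Nppb, and from -0.408 (without heart 7) over -0.0094 (without heart 6) to 0.907 (without heart 1) for Nppa and Nppb. The cause was not tested. The 11 probes that differed in spread became 6 with deviations from the median and 2 with limma-trend, all with more spread in F344, 5 among probes with a mean above 8 (1 with more in SHRSP), 0 by exact permutation (1828 unadjusted) and 3 to 15 with 1 array left out, lowest without F344 replicates 4 (3), 6 (4) and 2 (5), where none had more spread in SHRSP. With a replicate block it was 9, all with more spread in F344, and the 3 genes with more spread in SHRSP were not called. Same-numbered arrays of the strains correlated between -0.229 and 0.408 in their deviations, so the numbers were not taken to pair animals. Quantile normalization over the 7 arrays left the counts of probes for Spp1 (2), Nppa (0) and Nppb (0) and of genes with an SD above 0.5 (69) as they were, and was not run for the comparison with F344. For single genes, the SD fell by over 1.5 times on leaving out 1 heart in 19 of 81, in 11 of them for heart 6. Atp2a2 had an SD of 0 without heart 6.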

Other observations

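Heat shock and chaperone genes had a median SD of 0.267 over 10 genes above 8, none with an SD above 0.5, and ordered the hearts only loosely alike (median r of 0.146 between pairs of genes). Their mean deviation was 0.27 in heart 6, 0.19 in heart 3 and -0.20 in heart 7. Hspb1, a small heat shock protein, was at 12.95, 12.96, 12.89, 12.15, 12.27, 13.40 and 12.14 in hearts 1 to 7, Dnaja1, a cochaperone, ran from 11.02 in heart 1 to 12.37 in heart 6, and Hspa5, the chaperone of the endoplasmic reticulum, from 12.73 in heart 1 to 13.75 in heart 6. Metallothionein Mt1 had an order of its own, at 12.25, 9.44, 10.68, 11.08, 11.07, 12.73 and 9.98, high in hearts 1 and 6 and low in hearts 2 and 7.

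Some genes below the mean of 8 were raised in heart 6 alone. Cxcl10, a chemokine for T cells, was at 8.64 there and between 7.0 and 7.15 in the other hearts. Selp, the adhesion molecule P-selectin of platelets and endothelium, was at 8.86 against 6.90 to 7.29, and Ccl7, a monocyte chemokine, at 9.52 against 7.32 to 7.92. Of genes often used as references, Gapdh ran from 12.92 in heart 5 to 13.77 in heart 1 (SD 0.31, or 0.21 without heart 1). Hprt1 ran from 12.49 in heart 4 to 13.22 in heart 2 (SD 0.25). The housekeeping list had a median SD of 0.178 over 14 genes above 8, against 0.149 over all named genes above 8. None of the 14 had an SD above 0.5.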
